A study of Solanum lycopersicum with 3 samples.

Results

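PsbS and the early light-inducible proteins (ELIPs) of ripe tomato fruit were represented here by 3 probes of the TOM2 long-oligonucleotide array, PsbS SGN-U213287 and the ELIP probes AY547273 and SGN-U213893, of 11863 probe names other than controls and empty spots. They were picked by name with their ratios already known, so their levels and ratios are given as a description and without a p-value. The genotypes compared were Lycb-1 transgenic fruit and wild type fruit, both of the cultivar Zhongshu No. 5. The transgenic plants carried a citrus lycopene β-cyclase under a constitutive cauliflower mosaic virus promoter together with a kanamycin resistance gene, and the progeny of 1 transformant was used, so that the line and the transgene cannot be told apart. Ripe fruit was collected 10 days post breaker from glasshouse plants and deseeded, and each of the 3 pools per genotype held 4 to 5 fruits from 3 plants. Each of the 3 arrays was hybridised with 1 pool of Lycb-1, labelled with Cy5, and 1 pool of wild type, labelled with Cy3. There were 0 dye swaps, and for any single probe the dye and the genotype cannot be told apart.

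Both kinds of protein belong to the light-harvesting superfamily and protect the chloroplast against excess light. PsbS is a photosystem II protein that senses the acidification of the thylakoid lumen and switches on the dissipation of absorbed light as heat. This dissipation is helped by zeaxanthin, which violaxanthin de-epoxidase forms in strong light and zeaxanthin epoxidase removes again. ELIPs bind chlorophyll and carotenoids and accumulate transiently when thylakoids are built or taken apart or when leaves are light stressed, and in tomato they are known from fruit whose chloroplasts turn into chromoplasts. The stress-enhanced proteins (SEPs) and one-helix proteins (OHPs) are small relatives in the same membranes.

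All 3 probes had more signal in Lycb-1 than in wild type on the arrays of replicates 1 and 2, whereas on the array of replicate 3 the channels differed little. PsbS went from a faint spot in wild type to a bright one in Lycb-1 on the first 2 of these arrays. Both ELIP probes were bright in either genotype, up to the top of the scanner's scale. Values below are the deposited intensities, in scanner units with the background already subtracted. The median gene spot had 369 to 478 in the Cy5 channel and 365 to 543 in Cy3, depending on the array, and 99% of the empty spots were at or below 15 in Cy5 and 34 in Cy3. The highest Cy5 values were 71048, 85139 and 65560 on the arrays of replicates 1, 2 and 3, and spots within 1% of them are called at the top of the scale, where a further increase cannot be read.

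PsbS (SGN-U213287), 1 spot per array, had 27284 in Lycb-1 and 191 in wild type for replicate 1. For replicate 2 it had 4884 in Lycb-1 and 187 in wild type, and for replicate 3 it had 580 and 496. The Lycb-1 signals thus spanned a wide range, and the lowest of them was still above the highest wild type signal. Scaled to the median gene spot of its channel, to set the arrays on one scale, PsbS had 73.9, 13.1 and 1.21 in Lycb-1 and 0.472, 0.512 and 0.913 in wild type, for replicates 1, 2 and 3. The Lycb-1 signals differed from each other far more than the dim wild type signals did. For replicate 3 the wild type pool had the most PsbS signal of the wild type pools, and the Lycb-1 pool the least of the Lycb-1 pools. Each pool was read by 1 spot on 1 array, so differences between pools, arrays and spots cannot be told apart. The wild type signals of replicates 1 and 2 were below 400, the limit above which the authors checked spots, but above 99% of the empty spots, so the ratios of these arrays rest on a dim denominator. Of the 5 spots printed around PsbS, the highest in Lycb-1 had 5131, 2482 and 2607 on the arrays of replicates 1, 2 and 3, and the pair in the same row had at most 17 in Lycb-1 on any array.

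**Figure D1:**
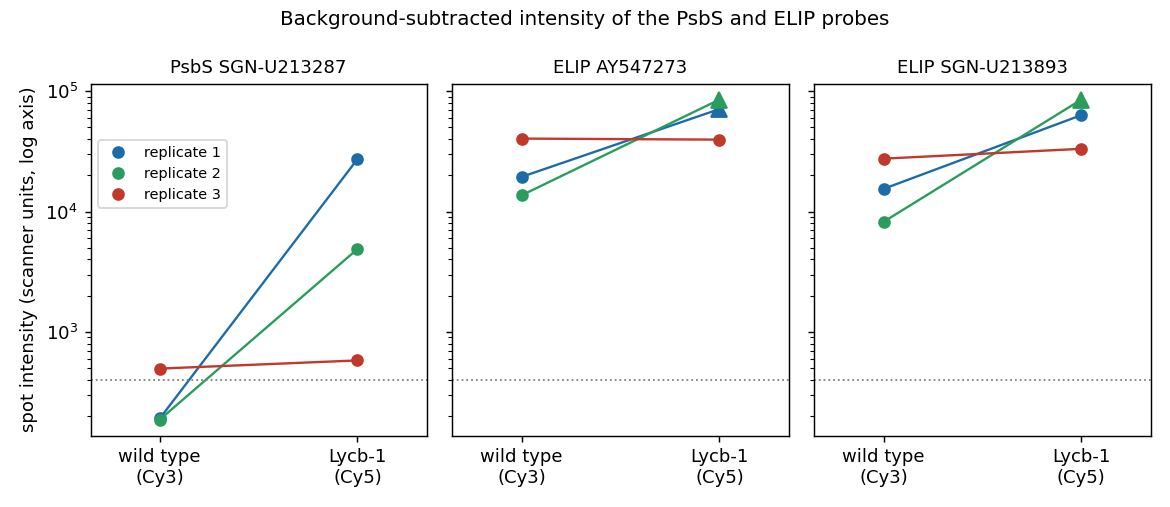
Background-subtracted intensity in scanner units (log axis) of PsbS SGN-U213287, ELIP AY547273 and ELIP SGN-U213893 in wild type (Cy3) and Lycb-1 (Cy5), with a line joining the 2 channels of each array; triangles mark spots at the top of the scale and the dotted line is the limit of checked spots at 400. The lines of replicates 1 and 2 climb in all panels, for PsbS from 191 to 27284 and from 187 to 4884, while those of replicate 3 are nearly level.

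ELIP AY547273 was bright in every pool. It had 71036 in Lycb-1 and 19434 in wild type for replicate 1, 85125 and 13669 for replicate 2, and 39609 and 40415 for replicate 3. The lowest Lycb-1 pool was below the highest wild type pool, both on the array of replicate 3, so the genotypes overlapped. The Lycb-1 spots of replicates 1 and 2 were at the top of the scale, so that their ratios to wild type of 3.66 and 6.23 before normalisation are compressed, and 1 of 3 arrays measured the Lycb-1 level within the scale. Among 8 neighbouring spots of AY547273 the highest Lycb-1 signals were 32611, 41932 and 26906.

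ELIP SGN-U213893 had 63288 in Lycb-1 and 15443 in wild type for replicate 1. It had 85133 and 8223 for replicate 2, with Lycb-1 at the top of the scale, and 33230 and 27527 for replicate 3. Every Lycb-1 pool was above every wild type pool for this probe in these intensities, before normalisation. After the loess described below, the log2 ratio of replicate 3 was -0.53. As for AY547273, wild type was highest and Lycb-1 lowest on the array of replicate 3, at 50.7 and 69.5 when scaled to the median gene spot of the channel, against 22.5 and 229 for replicate 2. The files give both probes the same ELIP description, so they may read the same transcript and are not independent measurements of the family.

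After print-tip loess, which removes the average dependence of the ratio on brightness in each printing block, PsbS had a log2 ratio (Lycb-1 over wild type) of 7.11 for replicate 1, 4.77 for replicate 2 and 0.20 for replicate 3. These are ratios of 138, 27.4 and 1.15. PsbS had the highest ratio of the 5720 probes kept on the array of replicate 1, was at rank 10 on that of replicate 2 and at rank 1746 on that of replicate 3. Its mean was 4.03 (SD 3.52, n = 3 arrays), a 16.3-fold ratio, at rank 3 of all means. PsbS and SGN-U213893 were among the 144 probes (2.52%) whose mean was at least 2-fold higher in Lycb-1. The mean depended on the arrays used: it was 2.49 without replicate 1, 3.66 without replicate 2 and 5.94 without replicate 3, or 5.6-, 12.6- and 61.5-fold. Under global loess, median centring, the authors' ratio and a normexp background the mean was between 3.49 and 4.08.

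The ELIP ratios were more affected by the loess than those of PsbS. The loess took 1.07, 1.90 and 1.03 off the log2 ratios of AY547273 and 0.90, 0.62 and 0.80 off those of SGN-U213893 for replicates 1, 2 and 3, and at most 0.06 in size for PsbS. SGN-U213893 then had log2 ratios of 1.13, 2.75 and -0.53, with a mean of 1.12 (SD 1.64, n = 3), a 2.17-fold ratio. AY547273 had 0.80, 0.74 and -1.06, with a mean of 0.16 (SD 1.05, n = 3). Both spreads were larger than the means, and without replicate 3 the means were 1.94 for SGN-U213893 and 0.77 for AY547273. The mean of AY547273 turned to -0.16 without replicate 1 and to -0.13 without replicate 2, and that of SGN-U213893 was 1.11 and 0.30.

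The sign of the ELIP ratios on the array of replicate 3 depended on the scaling. Where each array was only centred on its median, AY547273 had 0.03 and SGN-U213893 had 0.34 for replicate 3, against a median of 0.15 over all probes kept on that array. Under this centring the means were 1.54 for AY547273 and 1.94 for SGN-U213893. With global loess they were 0.80 and 1.27, with -0.68 and -0.30 for replicate 3, and with the authors' own ratio 0.37 and 1.24, with -0.78 and -0.42. On the arrays of replicates 1 and 2 both ELIP probes were above 0 under each of these scalings.

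Of the 5720 probes, 117 (2.05%) were at least 2-fold higher in Lycb-1 on both the arrays of replicates 1 and 2. PsbS and SGN-U213893 were among them, PsbS as a probe kept on these arrays through Lycb-1 alone. AY547273 was not counted among them, with 0.80 and 0.74, but its Lycb-1 spots on these arrays were at the top of the scale, and it had 1.05 and 2.04 with global loess and 1.96 and 2.64 with median centring. Within this group 71 probes (1.24% of all) were within 2-fold on the array of replicate 3, as PsbS and SGN-U213893 were, 34 (0.594%) were again at least 2-fold higher and 12 (0.21%) were at least 2-fold lower. Higher on the arrays of replicates 1 and 2 and lower on that of replicate 3, as both ELIP members were after the loess but not after median centring, were 568 probes (9.93%). The arrays resembled each other little as a whole: taken over the 5720 probes (genes are no independent replicates), Pearson's r of the log2 ratios was 0.38 for replicates 1 and 2, 0.30 for 1 and 3 and 0.16 for 2 and 3. What set replicate 3 apart for the PsbS and ELIP probes was not tested.

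The genotype labels held on all 3 arrays. The kanamycin resistance gene nptII (X57709) had log2 ratios of 6.76, 7.99 and 5.65 (mean 6.80, SE 0.46, n = 3 arrays, limma adjusted p = 0.045). Its mean wild type signals of 65, 38 and 82 were not far above the empty spots. The size of its ratios, and their order over the arrays, thus rests on a near-floor denominator. Lycopene β-cyclase (SGN-U221920) had 2.83, 3.13 and 3.28 (mean 3.08, SE 0.20, n = 3 arrays, limma adjusted p = 0.045). On the array of replicate 3, where PsbS had 0.20, nptII had its lowest ratio and lycopene β-cyclase its highest. These were the 2 probes with an adjusted p under 0.05 that were higher in Lycb-1 (0.035% of 5720), and 1 further probe was lower (0.0175%). The calls were not stable, since 0 probes passed with the authors' ratio, the normexp background, no filter on dim spots, the ordinary one-sample statistic or without replicate 1.

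Of the probes whose description names an ELIP, PsbS, SEP or OHP, 7 lie outside the 3 chosen ones, and 6 of them were kept. An adjusted p under 0.05 from limma was reached by 0 of the 6, beside 3 of all 5720 (0.0524%), and an unadjusted p under 0.05 by 1, beside 883 of all (15.4%). Their median log2 ratio was 0.25, beside -0.01 over all probes. For replicates 1, 2 and 3 the median of the 6 was 1.03, -0.07 and -0.34. With the 3 members included, 9 probes were kept, and the median over them was 1.12, 0.19 and -0.49. The members were chosen with their ratios known, so the second set of medians includes that choice.

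A further ELIP probe, SGN-U213894, followed the pattern of the ELIP members. It had 7892 in Lycb-1 and 2979 in wild type for replicate 1, 7011 and 3434 for replicate 2, and 3496 and 4644 for replicate 3. The genotypes overlapped. The log2 ratios were 1.12, 0.91 and -0.49, with a mean of 0.51 (SE 0.36, n = 3 arrays, limma adjusted p = 0.534). Over the 3 arrays they differed from those of AY547273 by a root mean square of 0.39 and from those of SGN-U213893 by 1.06. AY547273 was compressed at the top of the scale for replicates 1 and 2, and SGN-U213893 for replicate 2. These distances therefore hold for the measured and not for the true ratios.

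ELIP SGN-U213895, which carries the same description, had the opposite direction. It had 660 in Lycb-1 and 1490 in wild type for replicate 1, 908 and 3193 for replicate 2, and 768 and 1188 for replicate 3. Every Lycb-1 pool was below every wild type pool. The log2 ratios were -1.03, -1.64 and -0.66, with a mean of -1.11 (SE 0.25, n = 3 arrays, limma adjusted p = 0.226). The probe is the 1 with an unadjusted p under 0.05 and did not pass over all probes. Lower on all 3 arrays were 1220 of the 5720 probes (21.3%). The 4 ELIP probes thus did not read alike. The difference between them was not tested.

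**Figure D2:**
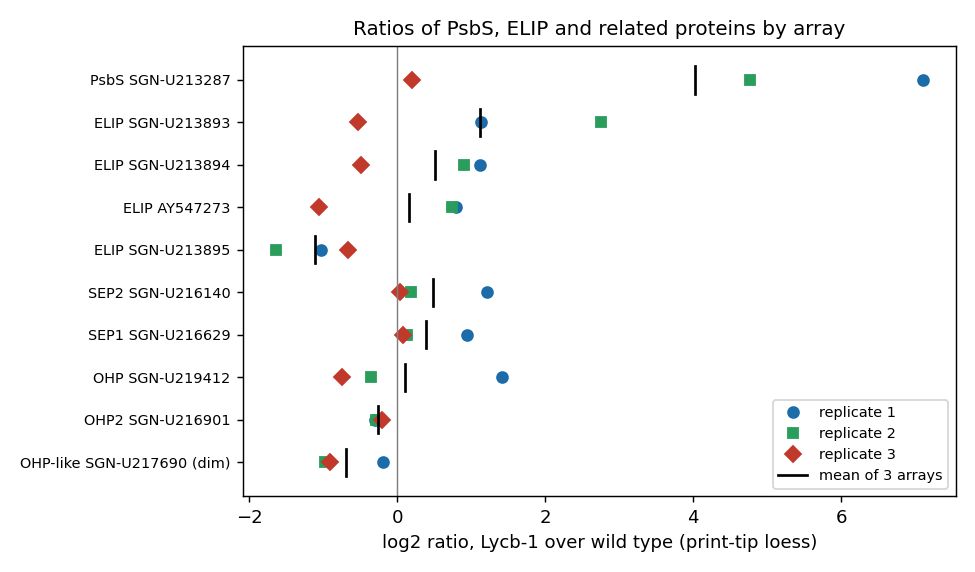
Log2 ratio after print-tip loess (x axis, Lycb-1 over wild type) for PsbS, the 4 ELIP probes and their relatives, with 1 symbol per array and a bar at the mean of 3 arrays; the dim OHP-like probe is drawn but was not kept for testing. For PsbS and 3 of the ELIP probes the diamond of replicate 3 lies left of both other arrays, at -1.06 for AY547273 and -0.53 for SGN-U213893 (0.03 and 0.34 under median centring), while SGN-U213895 is below 0 on all arrays.

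Among the small relatives, SEP2 (SGN-U216140) had log2 ratios of 1.21, 0.19 and 0.04 and a mean of 0.48 (adjusted p = 0.465 from limma, n = 3). SEP1 (SGN-U216629) had 0.94, 0.14 and 0.08 and a mean of 0.38 (adjusted p = 0.491 from limma, n = 3). For both SEPs the array of replicate 1 stood above the other two, which lay close together. OHP2 (SGN-U216901) had the narrowest spread of the family, from -0.30 to -0.20, with a mean of -0.26 (adjusted p = 0.511 from limma, n = 3). A one-helix protein (SGN-U219412) had 1.42, -0.35 and -0.74, and its mean of 0.11 (adjusted p = 0.925 from limma, n = 3) was -0.54 without replicate 1. The OHP-like probe SGN-U217690 was dim on every array, at 102 to 129 in Lycb-1 and 166 to 322 in wild type, and was not tested.

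The described probes nearest to PsbS over the 3 arrays were not close to it. They were a high affinity sulfate transporter (SGN-U237096), at a root mean square difference of 2.15, the ripening protein E4 (SGN-U213993), at 2.71 with its Lycb-1 spots of replicates 1 and 2 at the top of the scale, and a cytochrome P450 (SGN-U217123), at 2.75. The sulfate transporter had log2 ratios of 4.01, 2.85 and -0.54 and thus the same order of arrays as PsbS. It was picked for its nearness to the PsbS ratios, so this shared order is no separate result. Its wild type signals of 51, 67 and 575 were, as for PsbS, lowest for replicates 1 and 2. Those of replicates 1 and 2 were not far above the empty spots, so these ratios rest on a near-floor denominator. Its Lycb-1 signals of 635, 548 and 343 differed much less between arrays than those of PsbS. The ELIP members had nearer probes, but their ratios were compressed at the top of the scale on the arrays of replicates 1 and 2 (AY547273) or of replicate 2 (SGN-U213893), so these distances hold for the measured and not for the true ratios. A glycosyltransferase (SGN-U217139) was 0.10 from AY547273, a cellulose synthase-like protein (SGN-U217866) 0.27 and a phosphatidic acid phosphatase (SGN-U215813) 0.28. A pectin acetylesterase (SGN-U226491) was 0.35 from SGN-U213893, a glutathione S-transferase (SGN-U215029) 0.42 and a shikimate pathway enzyme (SGN-U219854) 0.47. Each of these 6 had log2 ratios above 0 for replicates 1 and 2 and below 0 for replicate 3. They were picked for their nearness to the ELIP ratios, so these shared signs follow from the choice and are no separate result.

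The enzymes of the xanthophyll cycle, whose pigments work together with PsbS, were read by few bright probes. Zeaxanthin epoxidase (SGN-U221254) had 623 in Lycb-1 and 3268 in wild type for replicate 1, 1070 and 3784 for replicate 2, and 1945 and 2264 for replicate 3. Every Lycb-1 pool was below every wild type pool, and the array of replicate 3 again had the smallest difference. Its log2 ratios were -2.57, -1.90 and -0.35, with a mean of -1.61 (SE 0.45, n = 3 arrays, limma adjusted p = 0.251). The second zeaxanthin epoxidase probe (Z83835) had 187 in Lycb-1 and 1836 in wild type for replicate 1, and 388 and 998 for replicate 2. On these arrays it was kept through wild type alone, which favours low ratios, and its Lycb-1 spots were dim. Its log2 ratios were -3.18, -1.12 and -0.02 (mean -1.44, SE 0.61, n = 3, adjusted p = 0.345 from limma). Neither passed the test. The violaxanthin de-epoxidase probes AF385366 and SGN-U222306 were dim: AF385366 had 253 in Lycb-1 and 49 in wild type for replicate 1, 70 and 66 for replicate 2 and 232 and 239 for replicate 3, so that its direction cannot be read from these spots. The 6 kept probes of β-carotene hydroxylase, which makes zeaxanthin, had means between -0.36 and 0.23.

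**Figure D3:**
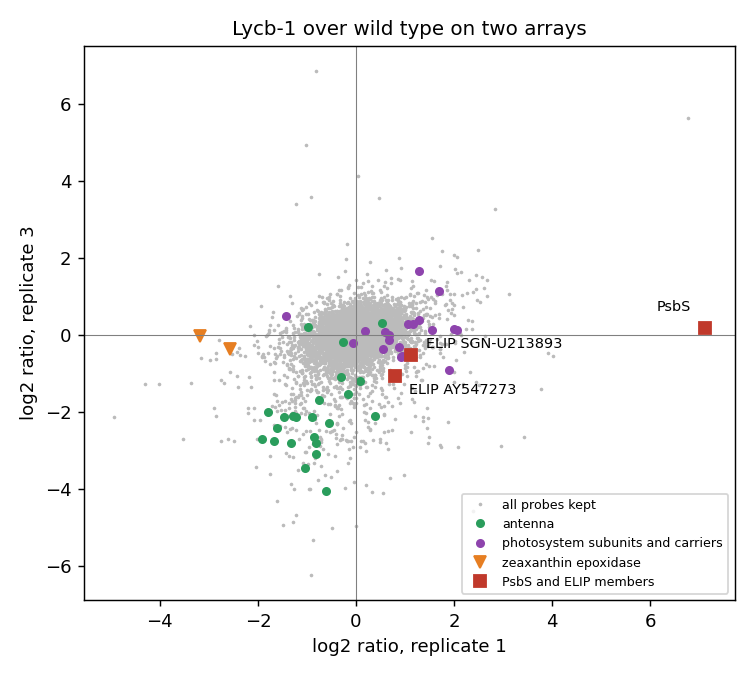
Log2 ratio (Lycb-1 over wild type) on the array of replicate 1 (x axis) against that of replicate 3 (y axis), both after print-tip loess, for all 5720 probes kept (grey), antenna probes (green), photosystem subunits and carriers (purple), zeaxanthin epoxidase (triangles) and the PsbS and ELIP members (squares). PsbS lies far to the right at 7.11 and near 0 on the y axis at 0.20, and the zeaxanthin epoxidase probes lie to the left at -2.57 and -3.18 and also near 0 on the y axis.

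Photosynthesis genes other than the PsbS and ELIP family did not share one pattern. In 8 lists made from words in the gene descriptions, 165 of 287 probes were kept, and 0 reached an adjusted p under 0.05 from limma. At an unadjusted p under 0.05, 14 were higher and 18 lower, beside 6.82% and 8.62% of all probes. Of 23 chlorophyll a/b-binding antenna probes, whose proteins belong to the same superfamily as PsbS and ELIP, 0 were higher and 14 lower at an unadjusted p under 0.05, and the median log2 ratio was -0.85, -0.85 and -2.12 for replicates 1, 2 and 3. The antenna was thus furthest below 0 on the array on which PsbS was near its wild type level. Spots were kept when the brighter channel reached 400, so an antenna probe dim in Lycb-1 could be kept through wild type alone. This favours low ratios, and the counts and medians of the 23 are limited by it. The median of the means was -1.44 over the 23, -0.89 over 36 without the filter on dim spots, and -0.54 over the 7 with both channels at 400 or more. The 2 antenna probes with the largest mean ratios were SGN-U213105 at -2.26 (adjusted p = 0.202 from limma) and Cab-3C M14444 at -1.91 (adjusted p = 0.179 from limma).

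Photosystem subunits and electron carriers lay on the other side. Of 19 kept, 6 were higher and 0 lower at an unadjusted p under 0.05, and 10 were higher on all 3 arrays, beside 20.4% of all probes. Their medians of 0.95, 0.78 and 0.10 were lowest for replicate 3, as the ratios of PsbS were. The largest were a photosystem II 5 kDa protein (SGN-U226477) at 1.61 (adjusted p = 0.122 from limma) and psbY (SGN-U213214) at 1.55 (adjusted p = 0.144 from limma). SGN-U226477 had 287, 135 and 377 in wild type for replicates 1, 2 and 3, so it was kept through Lycb-1 alone. For such a probe the filter favours high ratios. The median of the means was 0.47 over the 19, 0.48 over 38 without the filter on dim spots, and 0.44 over the 16 with both channels at 400 or more. Probes for photosystem II repair and plastid proteases had a median of 0.25 over 28 kept, with Clp protease subunits at 0.69 (SGN-U232878) and 0.63 (SGN-U219597). For ferredoxin, thioredoxin and other redox relays it was 0.10 over 26, and the subunit of ferredoxin-thioredoxin reductase (SGN-U213256) had 0.86 and a thioredoxin-related protein (SGN-U214668) -0.89.

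In the remaining lists the medians were near 0. Antioxidant probes (31 kept) had a median of 0.00, with a cytosolic ascorbate peroxidase (SGN-U215177) at 0.83 and a peroxiredoxin (SGN-U213568) at 0.75. Chlorophyll metabolism (13 kept) had -0.14, and its geranylgeranyl reductase probes, whose enzyme makes the phytol chain of chlorophyll, had -1.05 (SGN-U232754) and -0.90 (SGN-U214067), both lowest for replicate 1. Light signalling (17 kept) had -0.09, with cryptochrome 1b (SGN-U223866) at -0.89 and a phytochrome-interacting factor (SGN-U231769) at 1.01. None of the probes named from these lists passed over all probes.

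**Figure D4:**
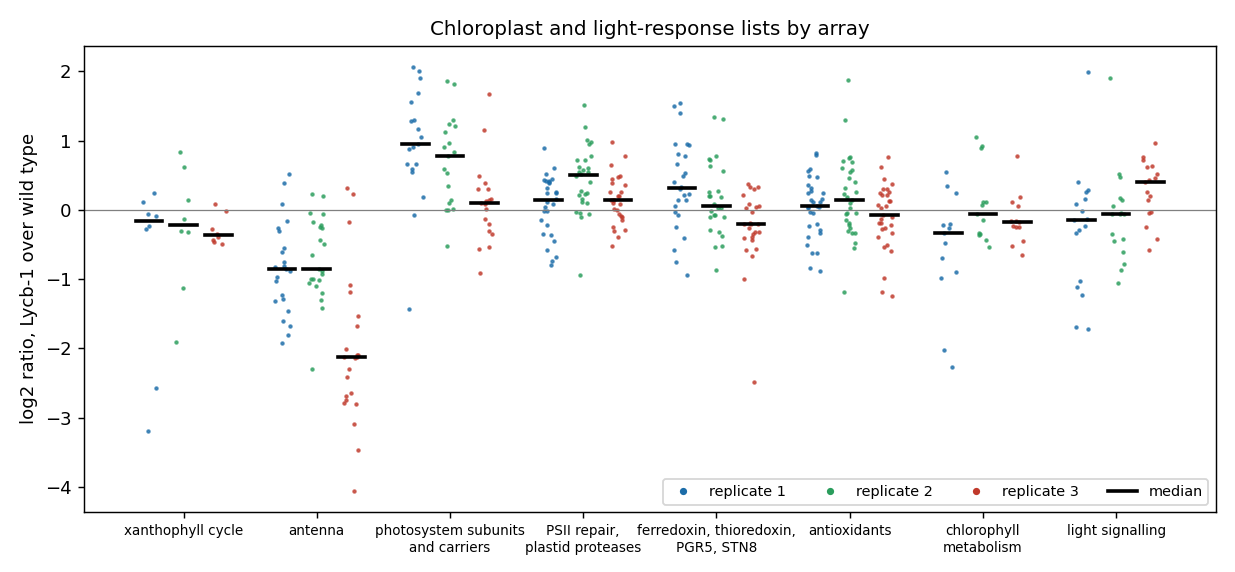
Log2 ratio after print-tip loess (y axis, Lycb-1 over wild type) of each kept probe in the 8 lists (x axis), 1 colour per array, with a bar at the median of each list on each array. The antenna medians of -0.85, -0.85 and -2.12 lie lowest, and those of the photosystem subunits and carriers lie at 0.95, 0.78 and 0.10.

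Markers of tissues that a fruit pool can hold were set beside these values. Ripe fruit markers were present, with 18 of 22 probes kept. Of these, 14 were higher on all 3 arrays, beside 20.4% of all probes. Their median was 0.64, and for replicates 1, 2 and 3 it was 0.77, 0.88 and 0.32. The largest were the E4 probes SGN-U213992 at 2.73 and SGN-U213993 at 2.68 (adjusted p = 0.18 for both from limma), the latter compressed at the top of the scale on 2 arrays. Green tissue was read through the small chain of Rubisco, the carbon-fixing enzyme, with 5 of 16 probes kept and medians of 0.43, 0.13 and -0.24 for replicates 1, 2 and 3. The Rubisco probe with the largest mean, small chain 2A (SGN-U225501), had log2 ratios of 2.13, 0.92 and 0.02, in the same order of arrays as PsbS, whereas chain 3B (SGN-U225544) had a mean of -0.63 and was below 0 on each array. Seed markers had 3 of 8 kept, among them a steroleosin (SGN-U216554) at 1.68 with 2.91 for replicate 2, and a lipid transfer protein (SGN-U218425) at -1.45. SGN-U218425 and the third kept seed probe (SGN-U221589) are also on the epidermis and cuticle list, so the seed and epidermis readings are not separate. Epidermis and cuticle markers had 12 of 21 kept, with medians of 0.10, -1.46 and -1.65, and a second lipid transfer protein (SGN-U216420) had -1.27. The part of tissue make-up in the PsbS and ELIP ratios was not tested, and in pooled fruit RNA fewer cells of a type and less RNA per cell cannot be told apart.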

How the data were processed

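The authors deposited, for each spot, the intensity of Cy5 (Lycb-1) and Cy3 (wild type) with the background already subtracted, and a ratio of the channels (Lycb-1 over wild type) that they had corrected by print-tip lowess. In the series' deposited value table stands the log2 of this ratio (largest difference 4.87e-09). The authors' lists of differentially expressed spots hold their own calls and were not used. The array has 13728 spots, 1568 of them empty. Intensities were normalised here by limma 3.58.1 under R 4.3.3 (print-tip loess, 48 blocks, 286 spots in each), with control and empty spots at weight 0. Spots that the authors checked (brighter channel at 400 or more) on all 3 arrays were kept: 6306, 6289 and 6855 were checked on the arrays of replicates 1, 2 and 3. Averaging repeated spots of a probe gave 5720 probes. The mean log2 ratio was tested against 0 by a two-sided test with lmFit and eBayes, and p-values were adjusted by Benjamini-Hochberg over all 5720 probes; each standard error is that of limma. The procedure was tested on simulated data.

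The members and the gene lists were chosen with earlier results of these data known. Named genes were the 3 members, every other probe described as ELIP, PsbS, SEP or OHP, nptII and lycopene β-cyclase, the 2 probes per other list whose mean log2 ratio was largest in size, the β-carotene hydroxylase, violaxanthin de-epoxidase and zeaxanthin epoxidase probes of the xanthophyll list, and for each member the 3 described probes with the smallest root mean square difference over the 3 arrays. The violaxanthin de-epoxidase and β-carotene hydroxylase probes were added after their values were seen. A lycopene β-cyclase probe may read the citrus and the tomato transcript. Of the probe names, 0 matched the reference table of locus tags, so names and descriptions are those of the arrays, and no sequence or position was used. Precision is limited by the number of arrays. Python 3.11.15 with matplotlib 3.10.9 drew the figures.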

Additional observations from a re-analysis of the deposited data

How the results depend on the processing

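PsbS kept its direction under each alternative run and had no value where both channels had to reach 400, since its wild type spots of replicates 1 and 2 are dimmer. With each array left out in turn its mean log2 ratio was 2.49 to 5.94, that of ELIP AY547273 -0.16 to 0.77 and that of ELIP SGN-U213893 0.30 to 1.94. Median centring moved AY547273 from 0.16 to 1.54; it leaves in the dependence of the ratio on brightness, and moved the median of all probes from -0.01 to 0.15. The one-helix protein SGN-U219412 ranged from -0.54 (without replicate 1) to 0.53 with an array left out; the other 64 values of the 6 further family probes kept their direction and their side of the threshold. The 3 probes called over the array became 9 with global loess, 17 with median centring, 56 with the channels as separate samples, 1 where both channels had to reach 400, 0 with the authors' ratio, the normexp background, no filter on dim spots or the ordinary one-sample statistic, and 0 to 1 with an array left out. In the 8 lists, the 0 calls became 1 with the channels as separate samples and remained 0 with an array left out. The 32 at an unadjusted p under 0.05 became 54 with median centring, 21 where both channels had to reach 400, 15 with the ordinary statistic and 21 to 38 with an array left out. The antenna median of -1.44 was -0.77 without replicate 3 and -0.54, over 7 probes, where both channels had to reach 400. The causes were not tested. The ratio of each array already pairs 1 pool of each genotype, so the fit is paired by array; the fit with the channels as separate samples keeps this pairing through an intraspot correlation of 0.412.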
